A study of Mus musculus with 12 samples.

Results

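The cytosolic and mitochondrial chaperone network was followed in mouse liver after a dose of acetaminophen, in mice with and without the Pml gene. It was taken as the genes whose symbols mark them as HSP70 or HSP110 (Hspa, Hsph1), HSP90 (Hsp90), J-domain proteins (Dnaja, Dnajb, Dnajc), small heat shock proteins (Hspb), mitochondrial HSP60 and HSP10 (Hspd1, Hspe1), subunits of the cytosolic chaperonin CCT (Cct) and BAG proteins (Bag). Hspa5, Hspa13, Hsp90b1, Dnajb9, Dnajb11, Dnajc3 and Dnajc10, chaperones of the endoplasmic reticulum with such symbols, were left out by name, whereas others of that compartment, such as Dnajb14 in its membrane, remain among the genes. Of 73 such genes with a probe set of their own, 72 had a mean log2 intensity of at least 5 over the 12 arrays, out of 17052 genes tested in all. Just above that limit lay Dnajc6 at 5.00, Cct8l1 at 5.09 and Hspa12b at 5.39, and Dnajc5b, at 4.14, was the only gene left out by it. The limit is on the mean over all arrays, so it does not select for a difference between groups. Hspa1a and Hspa1b, the stress-inducible HSP70 genes, and Hsp90ab1 had no probe set annotated to them alone and are not among the 72.

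Chaperones bind proteins that are not yet folded or have lost their fold. J-domain proteins bring clients to HSP70 and start its ATP cycle, HSP110 and BAG proteins release the nucleotide and let HSP70 go, HSP90 and the ring-shaped chaperonins fold particular clients, and small heat shock proteins hold unfolding proteins until HSP70 takes them up. When unfolded protein accumulates, heat shock factor HSF1 binds inverted GAA repeats, called heat shock elements, in front of the inducible members of this network. In hepatocytes acetaminophen is oxidised to a reactive metabolite that uses up glutathione and then binds protein thiols, while the PML protein builds the nuclear bodies that carry its name.

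RNA came from the liver of female BALB/cByJ mice aged 2.5 months, in 6 groups of 2 arrays each, on the Mouse Gene 1.1 ST array of Affymetrix. The Pml KO mice and Pml wt mice were either untreated or killed 2 h or 6 h after an intraperitoneal dose of 300 mg/kg acetaminophen, given in warmed PBS. Whether untreated mice received the vehicle, and whether each sample came from a separate animal, are not stated in the labels, and a p-value here therefore reflects only how far these samples spread. The values are log2 of the deposited normalized intensity, whose array medians were 79.9 to 90.1, and with 2 arrays a group the precision is limited by their number.

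Pml itself read 7.10 and 7.97 in untreated KO liver, against 8.18 and 8.46 in untreated wt liver. At 2 h it read 7.11 and 7.50 in KO liver, against 7.82 and 7.92 in wt liver. At 6 h it read 7.09 and 7.16 in KO liver, against 7.87 and 7.88 in wt liver. KO arrays lay below the wt arrays of the same condition, but the 7.97 of the array labelled untreated KO replicate 2 lay inside the range of all wt arrays. None of the 3 differences was called, the smallest adjusted p being 0.0715 at 6 h, and the labels do not say which part of the gene was deleted. Without that array, 23 members were called in KO liver at 2 h (30 with it) and 33 at 6 h (45 with it). The 5 tested hepatocyte markers summed to intensities of 34283 to 40286 over the 12 arrays.

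Acetaminophen changed many members of the network in both genotypes, 30 in KO and 10 in wt liver at 2 h, and 45 in KO and 41 in wt liver at 6 h. A gene was called when its adjusted p in limma was under 0.05, with p adjusted over all 17052 genes. At 2 h, 17 of the 72 members rose and 13 fell in KO liver, where 10.6% of all tested genes rose and 20.8% fell. In wt liver at 2 h, 9 members rose and 1 fell, where 6.53% of all genes rose and 6.17% fell. The wt count at 2 h depended on single arrays, since without untreated wt replicate 1 or 2 it was 5 or 2, and without wt 2 h replicate 1 or 2 it was 2 or 3. At 6 h, 32 members rose and 13 fell in KO liver (15.8% and 19.1% of all genes). In wt liver at 6 h, 27 members rose and 14 fell (16.5% and 22% of all genes). The share that rose was thus above that of all genes in both genotypes at both times, whereas the share that fell lay near or below that of all genes. The median log2 difference from untreated liver was 0.06 in KO and 0.07 in wt liver at 2 h for the members, against -0.06 in KO and 0.02 in wt liver for all genes. At 6 h it was 0.08 in KO and 0.14 in wt liver for the members, against -0.05 in both for all genes.

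Most of the members that rose at 6 h did so in both genotypes. Of the 32 members that rose in KO liver and the 27 that rose in wt liver, 26 were the same genes, 81.2% of the KO list and 96.3% of the wt list. Of the members that fell, 10 were shared, 76.9% of the 13 in KO liver and 71.4% of the 14 in wt liver. These comparisons use different untreated arrays for each genotype. The overlap over all tested genes is not given here, so these shares are not read as particular to the members. The heat map of all members by array shows the inducible members in dark red and many C-type J-domain genes in blue.

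**Figure D1:**
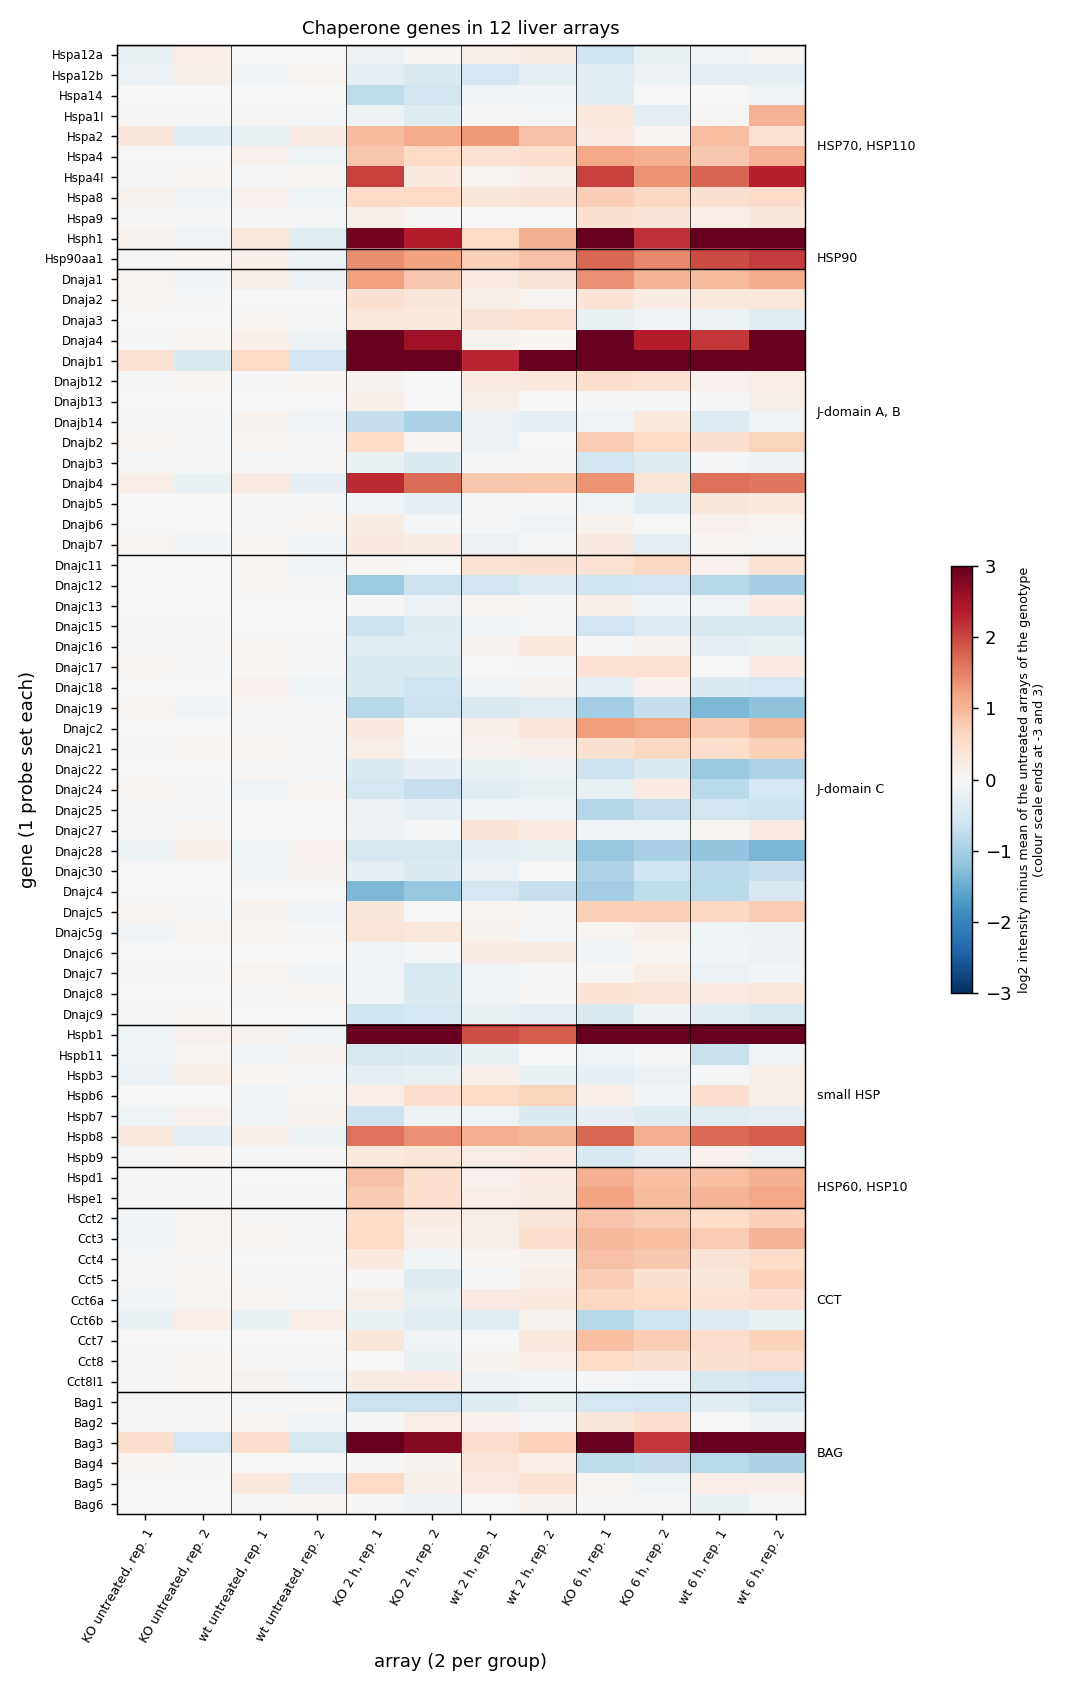
Each row is 1 of the 72 chaperone genes, grouped by role, and each column 1 of the 12 arrays, with KO left of wt in each condition. Colour gives log2 intensity minus the mean of the 2 untreated arrays of the same genotype and ends at -3 and 3. Hsph1, Dnaja4, Dnajb1, Hspb1 and Bag3 are dark in both KO arrays at 2 h and in all 4 arrays at 6 h, whereas the 2 wt arrays at 2 h are pale for Dnaja4 and Bag3.

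At 2 h, 8 of the 72 members stood higher in KO than in wt liver and 1 stood lower, where 0.411% of all genes were higher and 1.6% lower. The 8 were the co-chaperone Bag3, the J-domain genes Dnaja1 and Dnaja4, the small heat shock gene Hspb1, the HSP110 gene Hsph1, Hsp90aa1, and the mitochondrial chaperonin pair Hspd1 and Hspe1. The 1 lower member was Dnajc4. After quantile normalization the split was 7 higher and 0 lower. In untreated liver no member was called in limma, where 0.00586% of all genes were called. An unadjusted p under 0.05 was reached by 3 members, 4.17% of the 72, against 3.87% of all genes, which is near the same share. The 3 were Hsp90aa1 at 0.45 ± 0.14, Cct8l1 at -0.30 ± 0.10 and Dnajb3 at 0.29 ± 0.11 (KO minus wt, log2 with the standard error of the fit, adjusted p = 0.9999 each).

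This count rested on few arrays. With only the 4 arrays of the comparison in the fit, 1 member was called, Hsph1. Without wt 2 h replicate 1 or 2 it was 0, without KO 2 h replicate 1 it was 1, and without KO 2 h replicate 2 it was 14. It was 4 without either untreated KO array, 5 without either untreated wt array, 7 without either wt 6 h array and 11 without either KO 6 h array. Each of the 8 members that were higher kept a positive difference in all 12 fits without 1 array. The same genotype gap, set against the gap in untreated liver, was not called for any member at 2 h in limma (0.0293% of all genes called). An unadjusted p under 0.05 was reached by 21 members, 29.2% of the 72, against 15.3% of all genes. The smallest adjusted p there belonged to Hspb1, with 2.58 ± 0.52 (adjusted p = 0.13), and Dnaja4, with 3.27 ± 0.68 (adjusted p = 0.137). For the 8 members together the adjusted p lay between 0.13 and 0.289. Without KO 2 h replicate 2, 2 members were called in that comparison. A higher level in KO liver at 2 h is therefore called for these 8 genes, and a larger response from the untreated level is not.

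From 2 h to 6 h members changed in both genotypes, and some of the changes differed between them. In KO liver 24 members rose and 9 fell over this interval (19.1% and 12.6% of all genes). In wt liver 21 rose and 13 fell (10.9% and 16.8% of all genes). The KO count was 20 without KO 2 h replicate 2, 19 without KO 6 h replicate 2 and 14 with only the 4 arrays in the fit, instead of 33. The wt count of 34 was 17 or 20 without wt 2 h replicate 1 or 2, and 18 without wt 6 h replicate 2. The difference between the 2 changes was called for 15 members, 8 with a more positive change in KO liver and 7 with a more negative one (4.97% and 2.06% of all genes).

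The 7 members with the more negative change in KO liver were Bag3, Dnaja4, Dnajb1, Dnajb4, Hsph1, Hspb1 and Hsp90aa1, and 5 of them were among the 8 that stood higher in KO liver at 2 h, a comparison that uses the same 2 h arrays. The 8 with the more positive change were all J-domain genes, Dnajb14 and 7 of the C type (Dnajc11, Dnajc16, Dnajc17, Dnajc18, Dnajc19, Dnajc22 and Dnajc24). The count of 15 was 8 without either untreated wt array, 4 without either untreated KO array, 1 without wt 2 h replicate 1 or KO 2 h replicate 1, and 0 without wt 2 h replicate 2, wt 6 h replicate 1 or KO 6 h replicate 2. It was 10 without wt 6 h replicate 2, 12 without KO 2 h replicate 2, 19 without KO 6 h replicate 1 and 0 with only the 8 arrays in the fit. After quantile normalization 4 were higher and 6 lower.

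**Figure D2:**
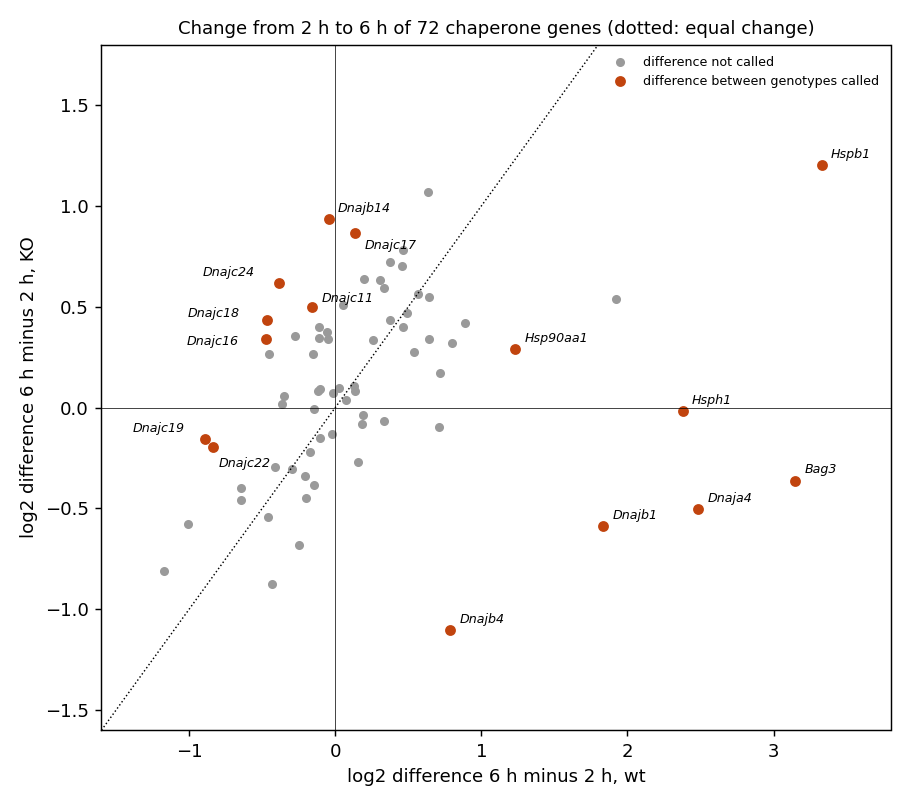
Each point is 1 of the 72 members, placed by its log2 change from 2 h to 6 h in KO liver (vertical) and wt liver (horizontal), each between means of 2 arrays. The 15 members whose change differed between genotypes are coloured. Bag3, Hspb1, Dnaja4 and Hsph1 lie far to the right, with wt changes of 3.15, 3.33, 2.49 and 2.38, and the coloured J-domain C genes lie above the dotted line of equal change.

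Of the 72 members, Dnajc2 and Dnajc24 were higher and Dnajb5 lower in KO than in wt liver at 6 h, where 4.09% of all genes were higher and 4.93% lower. After quantile normalization 3 were higher and 0 lower, and with log2 of the value plus 16 the split was 6 and 1. The count was 0 without wt 6 h replicate 1 or KO 6 h replicate 2 and with only the 4 arrays in the fit, and 6 without KO 2 h replicate 1 or 2 or KO 6 h replicate 1. The response at 6 h differed between genotypes for no member in limma (0.487% of all genes called). An unadjusted p under 0.05 was reached by 5 members, 6.94% of the 72, against 16.2% of all genes. None of the 8 members that stood higher in KO liver at 2 h was called at 6 h. Whether the counts at 2 h and 6 h differ was not tested, and their order turned with single arrays: without KO 2 h replicate 1 the count was 1 at 2 h and 6 at 6 h, and without either wt 2 h array it was 0 at 2 h and 2 at 6 h.

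Markers of other cells differed between the genotypes at these times, and in whole liver a change in the number of cells of a type cannot be told apart from a change in RNA per cell. The 9 neutrophil markers summed to intensities of 532 to 664 in KO liver at 6 h, against 2149 to 4411 in wt liver at 6 h, and 6 of the 9 were lower in KO. At 2 h the sums were 506 to 872 in KO and 588 to 594 in wt liver, with 0 of 9 called. The 2 tested erythroid markers summed to 395 to 504 in KO liver at 2 h, against 828 to 1135 in wt liver, and neither was called. At 6 h they summed to 265 to 269 in KO liver, against 1097 to 1815 in wt liver, and both were lower in KO. The 2 tested lymphocyte markers summed to 203 to 211 in KO liver at 2 h, against 334 to 370 in wt liver, and 1 was lower in KO. At 6 h 2 of 4 bile duct markers and 1 of 5 sinusoidal endothelial markers were lower and 1 of 6 Kupffer cell markers was higher in KO liver. The 5 stellate cell, 11 muscle and 5 hepatocyte markers had 0 calls between genotypes in any condition. Against untreated liver at 6 h, 0 of 9 neutrophil markers were called in KO liver, whereas 7 rose and 1 fell in wt liver. Of 6 Kupffer cell markers 1 rose and 3 fell in KO and 4 fell in wt liver, of 5 endothelial markers 2 fell in KO, and 2 rose and 3 fell in wt liver, and of 5 stellate cell markers 0 were called in KO and 3 fell in wt liver. The part of these cells in the chaperone values was not tested.

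The HSP70 and HSP110 genes carried both constant and strongly inducible members. Hsph1, an HSP110 protein that releases nucleotide from HSP70, read 9.52 and 9.29 without treatment, 12.27 and 11.75 after 2 h, and 12.40 and 11.58 after 6 h in KO liver. In wt liver it read 9.34 and 8.72 without treatment, 9.60 and 10.10 after 2 h, and 12.03 and 12.42 after 6 h. Both KO arrays at 2 h lay above both wt arrays at 2 h, and at 6 h the KO and wt arrays overlapped. The difference from untreated liver was 2.61 ± 0.31 (adjusted p = 0.000441) in KO and 0.82 ± 0.31 (adjusted p = 0.111) in wt liver at 2 h. At 6 h it was 2.59 ± 0.31 (adjusted p = 0.000163) in KO and 3.20 ± 0.31 (adjusted p = 4.69e-05) in wt liver. Between genotypes Hsph1 differed by 2.16 ± 0.31 (adjusted p = 0.0156) at 2 h and by -0.23 ± 0.31 (adjusted p = 0.653) at 6 h. Its change from 2 h to 6 h was -0.02 ± 0.31 in KO and 2.38 ± 0.31 in wt liver, a difference of -2.40 ± 0.43 (adjusted p = 0.0199). The 2 h call between genotypes ended when KO 2 h replicate 1 or either wt 2 h array was left out (adjusted p up to 0.102), and the call on the change from 2 h to 6 h ended when KO 6 h replicate 2, wt 6 h replicate 1, KO 2 h replicate 1 or either wt 2 h array was left out (adjusted p up to 0.073).

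Hspa4, another HSP110 protein, read 10.38 and 10.35 without treatment, 11.19 and 10.96 after 2 h, and 11.52 and 11.42 after 6 h in KO liver. Its wt arrays read 10.36 and 10.08 without treatment, 10.66 and 10.71 after 2 h, and 11.03 and 11.26 after 6 h. It rose by 0.71 ± 0.13 (adjusted p = 0.00295) in KO and by 0.47 ± 0.13 (adjusted p = 0.0405) in wt liver at 2 h, and by 1.11 ± 0.13 (adjusted p = 0.000151) in KO and 0.93 ± 0.13 (adjusted p = 0.000353) in wt liver at 6 h, with treated and untreated arrays apart each time. Its call in wt liver at 2 h ended when either wt 2 h array, either untreated KO array or untreated wt replicate 2 was left out (adjusted p up to 0.272). The remaining HSP110 gene, Hspa4l, read 8.36 and 8.47 without treatment, 10.46 and 8.69 after 2 h, and 10.47 and 9.76 after 6 h in KO liver. The wt arrays read 8.04 and 8.13 without treatment, 8.17 and 8.24 after 2 h, and 9.83 and 10.41 after 6 h. KO 2 h replicate 1, at 10.46, stood well above replicate 2, and the difference at 2 h was not called in either genotype, being 1.16 ± 0.45 (adjusted p = 0.0723) in KO and 0.12 ± 0.45 (adjusted p = 0.903) in wt liver. At 6 h Hspa4l rose by 1.70 ± 0.45 (adjusted p = 0.0143) in KO and by 2.03 ± 0.45 (adjusted p = 0.00493) in wt liver, the KO call ending when KO 6 h replicate 1 or either untreated KO array was left out (adjusted p up to 0.106).

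Hspa8, the constitutive cytosolic HSP70, was bright in every array. It read 12.54 and 12.32 without treatment, 13.01 and 13.02 after 2 h, and 13.16 and 13.04 after 6 h in KO liver. The corresponding wt values were 12.66 and 12.40 without treatment, 12.87 and 12.91 after 2 h, and 12.98 and 13.08 after 6 h. The treated arrays lay above the untreated arrays of their genotype, by small steps. It rose by 0.59 ± 0.12 (adjusted p = 0.00488) in KO liver at 2 h, where wt liver showed 0.36 ± 0.12 (adjusted p = 0.0744), and at 6 h by 0.67 ± 0.12 (adjusted p = 0.00176) in KO and 0.50 ± 0.12 (adjusted p = 0.00783) in wt liver. The wt call at 6 h ended when untreated wt replicate 2 was left out (adjusted p up to 0.0818). Hspa9, the mitochondrial HSP70 that also drives protein import, rose by 0.43 ± 0.10 (adjusted p = 0.00707) in KO liver at 6 h, where wt liver showed 0.27 ± 0.10 (adjusted p = 0.0524). The KO call ended when untreated KO replicate 2 was left out (adjusted p up to 0.0563). Hspa2, an HSP70 best known from testis, took another course. KO liver gave 6.57 and 5.90 without treatment, 7.17 and 7.35 after 2 h, and 6.47 and 6.30 after 6 h. Wt liver gave 5.95 and 6.38 without treatment, 7.46 and 7.05 after 2 h, and 7.06 and 6.58 after 6 h. At 2 h its arrays were above the untreated ones in both genotypes, by 1.03 ± 0.24 (adjusted p = 0.0104) in KO and 1.09 ± 0.24 (adjusted p = 0.0165) in wt liver, and at 6 h neither difference was called (0.15 ± 0.24 in KO, 0.66 ± 0.24 in wt). The 2 h calls ended when KO 2 h replicate 2 or untreated KO replicate 2 was left out (adjusted p up to 0.0896) for KO and when wt 2 h replicate 1 or untreated wt replicate 1 was left out (adjusted p up to 0.136) for wt liver. Hspa14, a ribosome-associated HSP70 relative, fell by 0.65 ± 0.12 (adjusted p = 0.00363) in KO liver at 2 h, where wt liver showed -0.12 ± 0.12 (adjusted p = 0.573). Hspa1l, Hspa12a and Hspa12b were called in none of the 12 comparisons.

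Hsp90aa1, the inducible cytosolic HSP90, was the 1 HSP90 gene measured. The KO arrays read 11.26 and 11.40 without treatment, 12.72 and 12.54 after 2 h, and 13.05 and 12.78 after 6 h. For wt liver the values were 11.02 and 10.73 without treatment, 11.59 and 11.75 after 2 h, and 12.83 and 12.97 after 6 h. Treated and untreated arrays did not overlap in either genotype at either time, and the KO arrays lay above the wt arrays in untreated liver and at 2 h but not at 6 h. The rise was 1.30 ± 0.14 (adjusted p = 0.000303) in KO and 0.79 ± 0.14 (adjusted p = 0.00511) in wt liver at 2 h, and 1.59 ± 0.14 (adjusted p = 3.36e-05) in KO and 2.02 ± 0.14 (adjusted p = 8.11e-06) in wt liver at 6 h. KO exceeded wt liver by 0.96 ± 0.14 (adjusted p = 0.0163) at 2 h, against 0.45 ± 0.14 in untreated liver, which was not called, and 0.02 ± 0.14 at 6 h. The change from 2 h to 6 h was 0.29 ± 0.14 in KO and 1.23 ± 0.14 in wt liver, a difference of -0.94 ± 0.20 (adjusted p = 0.0296). Its wt call at 2 h ended when wt 2 h replicate 2 or untreated wt replicate 2 was left out (adjusted p up to 0.0541). The genotype call at 2 h ended when KO 2 h replicate 1 or either wt 2 h array was left out (adjusted p up to 0.107), and the call on the late change ended when KO 6 h replicate 2, wt 6 h replicate 1, KO 2 h replicate 1 or either wt 2 h array was left out (adjusted p up to 0.105).

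Among the A-type J-domain genes, relatives of bacterial DnaJ, Dnaja4 gave the widest genotype gap at 2 h. In KO liver its values were 6.50 and 6.62 without treatment, 10.73 and 9.10 after 2 h, and 9.92 and 8.91 after 6 h. In wt liver it read 7.18 and 6.85 without treatment, 7.13 and 7.07 after 2 h, and 9.15 and 10.03 after 6 h. Both KO arrays had left the untreated level by 2 h, whereas the wt arrays at 2 h lay between the untreated wt arrays. The difference at 2 h was 3.36 ± 0.48 (adjusted p = 0.000972) in KO and 0.08 ± 0.48 (adjusted p = 0.935) in wt liver, a 10.2-fold level in KO and a 1.06-fold level in wt liver. At 6 h Dnaja4 rose by 2.85 ± 0.48 (adjusted p = 0.00126) in KO and by 2.57 ± 0.48 (adjusted p = 0.00197) in wt liver, and the arrays of the genotypes overlapped. Between genotypes it differed by 2.81 ± 0.48 (adjusted p = 0.0274) at 2 h, and its change from 2 h to 6 h by -2.99 ± 0.68 (adjusted p = 0.0355). The 2 h genotype call ended when KO 2 h replicate 1 or either wt 2 h array was left out (adjusted p up to 0.186), and the call on the late change ended on leaving out any 1 array except KO 6 h replicate 1 or KO 2 h replicate 2 (adjusted p up to 0.137).

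Dnaja1, the main cytosolic A-type partner of HSP70, read 11.58 and 11.41 without treatment, 12.72 and 12.31 after 2 h, and 12.86 and 12.52 after 6 h in KO liver. Its wt arrays read 11.58 and 11.25 without treatment, 11.67 and 11.80 after 2 h, and 12.36 and 12.54 after 6 h. At 2 h both KO arrays lay above both wt arrays, and at 6 h the arrays overlapped. It rose by 1.02 ± 0.17 (adjusted p = 0.00203) in KO liver at 2 h, where wt liver showed 0.31 ± 0.17 (adjusted p = 0.278), and by 1.19 ± 0.17 (adjusted p = 0.000517) in KO and 1.03 ± 0.17 (adjusted p = 0.00108) in wt liver at 6 h. The genotype difference at 2 h was 0.79 ± 0.17 (adjusted p = 0.0493), and it ended on leaving out any 1 array except a KO 6 h array or KO 2 h replicate 2 (adjusted p up to 0.223). Dnaja2, its close relative, rose by 0.40 ± 0.10 in KO liver at 2 h and by 0.32 ± 0.10 in KO and 0.32 ± 0.10 in wt liver at 6 h. At 2 h the KO call ended when KO 2 h replicate 1 or untreated KO replicate 2 was left out (adjusted p up to 0.0997). At 6 h the KO call ended when KO 6 h replicate 1, either untreated KO array or either untreated wt array was left out (adjusted p up to 0.203) and the wt call when either wt 6 h array or either untreated wt array was left out (adjusted p up to 0.136). Dnaja3, the mitochondrial member, rose at 2 h by 0.31 ± 0.10 (adjusted p = 0.0427) in KO and 0.41 ± 0.10 (adjusted p = 0.0254) in wt liver and then fell from 2 h to 6 h, with -0.46 ± 0.10 (adjusted p = 0.00707) in KO and -0.65 ± 0.10 (adjusted p = 0.00169) in wt liver. The 2 falls were called in all 12 fits without 1 array, whereas the rises ended on leaving out any 1 array except a KO 6 h array or a wt 6 h array (adjusted p up to 0.144) for KO and when either wt 2 h array or either untreated wt array was left out (adjusted p up to 0.179) for wt liver.

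Dnajb1, the classic inducible partner of HSP70, rose in both genotypes already at 2 h. It read 8.27 and 7.39 without treatment, 12.49 and 12.18 after 2 h, and 12.21 and 11.28 after 6 h in KO liver. The wt arrays read 8.31 and 7.15 without treatment, 10.03 and 10.86 after 2 h, and 12.21 and 12.35 after 6 h. Treated arrays lay above untreated arrays everywhere, although the untreated arrays themselves spread widely, replicate 1 reading above replicate 2 in both genotypes. The rise at 2 h was 4.51 ± 0.44 (adjusted p = 0.000172) in KO and 2.71 ± 0.44 (adjusted p = 0.00319) in wt liver, and at 6 h 3.92 ± 0.44 (adjusted p = 0.000118) in KO and 4.55 ± 0.44 (adjusted p = 4.87e-05) in wt liver. These are 22.7-fold in KO and 6.55-fold in wt liver at 2 h, and 15.1-fold in KO and 23.4-fold in wt liver at 6 h. All 4 calls held in each of the 12 fits without 1 array. The genotype difference at 2 h was 1.89 ± 0.44 (adjusted p = 0.056), above the threshold, while the change from 2 h to 6 h differed between genotypes by -2.42 ± 0.62 (adjusted p = 0.0453), being -0.59 ± 0.44 in KO and 1.83 ± 0.44 in wt liver. That last call ended on leaving out any 1 array except KO 6 h replicate 1 or an untreated wt array (adjusted p up to 0.155), and the wt rise from 2 h to 6 h ended when wt 6 h replicate 2 or wt 2 h replicate 1 was left out (adjusted p up to 0.0996).

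Dnajb4, a relative of Dnajb1, reached its highest readings in KO liver at 2 h. KO liver gave 9.88 and 9.50 without treatment, 11.94 and 11.36 after 2 h, and 11.03 and 10.05 after 6 h. The corresponding wt values were 9.81 and 9.30 without treatment, 10.36 and 10.39 after 2 h, and 11.20 and 11.13 after 6 h. KO arrays stood above wt arrays at 2 h and below them at 6 h. It rose by 1.96 ± 0.30 (adjusted p = 0.00133) in KO liver at 2 h, where wt liver showed 0.82 ± 0.30 (adjusted p = 0.103), and by 0.85 ± 0.30 (adjusted p = 0.0488) in KO and 1.61 ± 0.30 (adjusted p = 0.00195) in wt liver at 6 h. From 2 h to 6 h it fell in KO liver by 1.10 ± 0.30 (adjusted p = 0.0182), where wt liver showed 0.79 ± 0.30 (adjusted p = 0.075), and these changes differed by -1.89 ± 0.42 (adjusted p = 0.0351). The KO call at 6 h ended on leaving out any 1 array except KO 6 h replicate 2, a KO 2 h array or an untreated wt array (adjusted p up to 0.372), and the KO fall when KO 6 h replicate 2 or KO 2 h replicate 1 was left out (adjusted p up to 0.133). The call on the late change ended on leaving out any 1 array except KO 6 h replicate 1, wt 6 h replicate 2, KO 2 h replicate 2 or an untreated wt array (adjusted p up to 0.131). Dnajb5, another of these close relatives, read 6.66 and 6.49 in KO liver at 6 h, against 7.05 and 7.02 in wt liver, a difference of -0.46 ± 0.10 (adjusted p = 0.0266) that ended when KO 6 h replicate 2 or either wt 6 h array was left out (adjusted p up to 0.156). Dnajb14, a J-domain protein of the endoplasmic reticulum membrane, read 8.12 and 8.04 without treatment, 7.36 and 7.13 after 2 h, and 7.99 and 8.38 after 6 h in KO liver. Wt liver gave 8.01 and 7.82 without treatment, 7.75 and 7.66 after 2 h, and 7.53 and 7.78 after 6 h. The KO arrays dipped at 2 h and were back by 6 h, with -0.84 ± 0.15 (adjusted p = 0.00288) at 2 h and 0.93 ± 0.15 (adjusted p = 0.00139) from 2 h to 6 h, while wt liver showed -0.21 ± 0.15 and -0.04 ± 0.15.

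The time courses of the inducible members are drawn by array in the plot of 12 members over time. Bag3, Dnajb1, Dnajb4, Dnaja1, Hsph1 and Hspb8 shared 1 feature: in untreated KO and untreated wt liver, and in KO liver at 2 h and 6 h, replicate 1 read above replicate 2 for all 6. In wt liver replicate 2 read above replicate 1 for 5 of the 6 at 2 h, all but Hspb8, and for 5 of the 6 at 6 h, all but Dnajb4. Other inducible members did not share the feature. In untreated KO liver replicates 1 and 2 read 7.07 and 7.35 for Hspb1, 6.50 and 6.62 for Dnaja4, and 11.26 and 11.40 for Hsp90aa1. Over all genes, deviations of same-numbered arrays correlated by -0.13 to 0.18 between groups. The labels do not say whether replicate numbers stand for a shared day or batch.

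**Figure D3:**
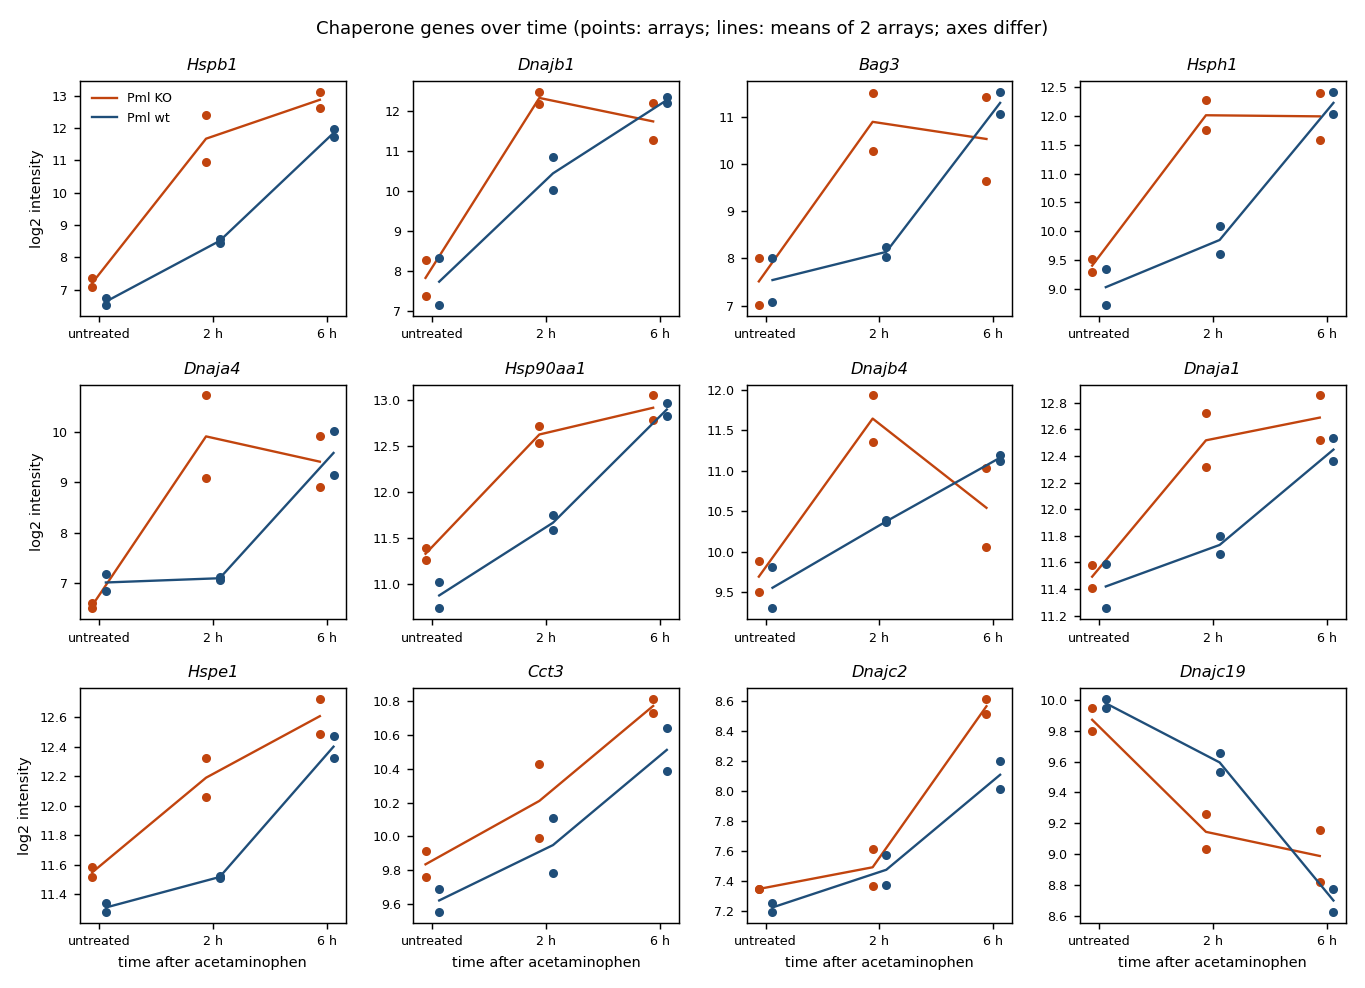
Log2 intensity (vertical, a different range in each panel) of 12 members against time after acetaminophen, with KO in orange and wt in blue. Points are arrays and lines join means of 2 arrays. Hspb1, Dnajb1, Bag3, Hsph1, Dnaja4 and Hsp90aa1 have made most of their rise by 2 h in KO liver and rise further from 2 h to 6 h in wt liver (Dnajb1 by 2.71 to 2 h and by 1.83 from then on), Cct3 and Dnajc2 climb mainly from 2 h to 6 h, and Dnajc19 declines.

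A small heat shock gene gave the largest rise of any member at 6 h. Hspb1, which holds unfolding proteins and protects actin filaments, read 7.07 and 7.35 without treatment, 12.40 and 10.93 after 2 h, and 13.12 and 12.62 after 6 h in KO liver. For wt liver the values were 6.74 and 6.53 without treatment, 8.57 and 8.45 after 2 h, and 11.72 and 11.96 after 6 h. KO arrays lay above wt arrays in every condition, narrowly in untreated liver and widely at 2 h. The rise at 2 h was 4.46 ± 0.36 (adjusted p = 7.23e-05) in KO and 1.88 ± 0.36 (adjusted p = 0.00842) in wt liver, 22-fold in KO and 3.67-fold in wt liver. At 6 h it was 5.66 ± 0.36 (adjusted p = 7.26e-06) in KO and 5.21 ± 0.36 (adjusted p = 8.68e-06) in wt liver, 50.5-fold in KO and 37-fold in wt liver. KO exceeded wt liver by 3.16 ± 0.36 (adjusted p = 0.00532) at 2 h, 8.91-fold, and by 1.03 ± 0.36 (adjusted p = 0.0986) at 6 h. The 2 h genotype call ended when either wt 2 h array was left out (adjusted p up to 0.0677), and the wt call at 2 h when wt 2 h replicate 1 or untreated wt replicate 2 was left out (adjusted p up to 0.0654). From 2 h to 6 h Hspb1 rose by 1.20 ± 0.36 in KO liver, a call that ended when KO 6 h replicate 1 or KO 2 h replicate 2 was left out (adjusted p up to 0.155), and by 3.33 ± 0.36 in wt liver, and these changes differed by -2.13 ± 0.52 (adjusted p = 0.0408), which ended on leaving out any 1 array except KO 6 h replicate 1 or a KO 2 h array (adjusted p up to 0.143). A second probe set gave nearly the same values, whereas 1 more, dim one with a mean log2 of 5.39 gave -0.03 in KO and -0.21 in wt liver at 2 h, and -0.44 in KO and -0.60 in wt liver at 6 h.

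Hspb8, which works with BAG3 in sending damaged proteins to autophagy, read 11.02 and 10.44 without treatment, 12.35 and 12.10 after 2 h, and 12.44 and 11.82 after 6 h in KO liver. In wt liver it read 10.63 and 10.34 without treatment, 11.57 and 11.49 after 2 h, and 12.18 and 12.31 after 6 h. It rose by 1.499 ± 0.23 (adjusted p = 0.00123) in KO and 1.05 ± 0.23 (adjusted p = 0.0138) in wt liver at 2 h and by 1.40 ± 0.23 (adjusted p = 0.00097) in KO and 1.76 ± 0.23 (adjusted p = 0.000215) in wt liver at 6 h, with no overlap between treated and untreated arrays. The wt call at 2 h ended when either wt 2 h array or untreated wt replicate 2 was left out (adjusted p up to 0.11). Hspb6 rose in wt liver at 2 h by 0.62 ± 0.15 (adjusted p = 0.0249), where KO liver showed 0.36 ± 0.15 (adjusted p = 0.0964), and the wt call ended when either wt 2 h array or either untreated wt array was left out (adjusted p up to 0.133). Hspb6 is also a muscle gene, and the 11 muscle markers summed to 954 to 1360 in KO and 1015 to 1191 in wt liver at 2 h, against 847 to 914 in untreated KO and 881 to 907 in untreated wt liver. Their part in the Hspb6 value was not tested. The remaining 4, Hspb3, Hspb7, Hspb9 and Hspb11, were not called in wt liver at either time, and of them Hspb9 fell in KO liver at 6 h, a call that ended on leaving out any 1 array except KO 6 h replicate 2 or a wt 6 h array (adjusted p up to 0.236).

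The mitochondrial chaperonin genes Hspd1, which forms the folding barrel, and Hspe1, which forms its lid, gave similar values. Hspd1 read 11.78 and 11.83 without treatment, 12.68 and 12.30 after 2 h, and 12.90 and 12.71 after 6 h in KO liver. Its wt arrays read 11.61 and 11.61 without treatment, 11.74 and 11.86 after 2 h, and 12.51 and 12.68 after 6 h. Hspe1 read 11.51 and 11.58 without treatment, 12.32 and 12.06 after 2 h, and 12.73 and 12.49 after 6 h in KO liver. Its wt arrays read 11.34 and 11.28 without treatment, 11.51 and 11.52 after 2 h, and 12.33 and 12.48 after 6 h. For both genes the KO arrays at 2 h stood above the wt arrays at 2 h, and the wt arrays at 6 h stood above all 2 h wt arrays. At 2 h Hspd1 rose by 0.68 ± 0.14 (adjusted p = 0.00438) in KO liver, where wt liver showed 0.18 ± 0.14 (adjusted p = 0.423). Hspe1 rose by 0.64 ± 0.12 (adjusted p = 0.0036) in KO liver, where wt liver showed 0.21 ± 0.12 (adjusted p = 0.308). At 6 h Hspd1 rose by 1.003 ± 0.14 in KO and 0.98 ± 0.14 in wt liver, and Hspe1 by 1.06 ± 0.12 in KO and 1.09 ± 0.12 in wt liver, all 4 called in each fit without 1 array. The genotype difference at 2 h was 0.69 ± 0.14 (adjusted p = 0.0365) for Hspd1 and 0.67 ± 0.12 (adjusted p = 0.0321) for Hspe1. That of Hspd1 ended on leaving out any 1 array except a KO 6 h array, a wt 6 h array or KO 2 h replicate 2 (adjusted p up to 0.194). That of Hspe1 ended when KO 2 h replicate 1, either wt 2 h array or either untreated KO array was left out (adjusted p up to 0.194). The genes lie head to head, and their RefSeq promoter windows overlap on opposite strands.

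The promoters of the members that stood higher in KO liver at 2 h were searched for the core of a heat shock element, taken as a pair of inverted GAA units, GAANNTTC or TTCNNGAA, each of which reads the same on both strands. RefSeq promoter windows of 300 bases, from 250 bases before to 50 bases after the start of the gene in GRCm38.p6, were at hand for 60 of the 72 members. The pair occurred in 18 of these 60 (30.0%) and in 4587 of all 27025 genes with a window (17.0%). It occurred in 7 of the 7 windows of members that stood higher in KO liver at 2 h and in 11 of the other 53 members (20.8%). It also occurred in 12 of the 22 windows of members that rose in wt liver at 6 h (54.5%). Of the remaining 38 windows 6 held it (15.8%). All 7 windows of members that stood higher in KO liver at 2 h are among these 22, so the counts overlap. Matches were not limited to members with a genotype gap, since 11 lay in the other members. The longer form, with 1 more GAA unit in turn, occurred in 4 members (6.67%), Dnajb6, Hspd1, Hspe1 and Hsph1, and in 179 of all genes (0.662%). Hspd1 and Hspe1 hold the same run of matches on opposite strands, and the counts of both forms include it once for each gene. Counting only matches before the start of the gene, the pair occurred in 14 of the 60 members (23.3%) and in 14.5% of all genes. By that count it occurred in 6 of the 7 windows of members that stood higher in KO liver at 2 h (85.7%). Among the other 53 members it occurred in 8 (15.1%). The windows of 4 genes are printed because their genes carried the genotype gap at 2 h and hold at least 2 matches, with the matched bases in capitals and the gene read from left to right. Those of Hspe1 (chr1:55087898-55088197, plus strand), Hsph1 (chr5:149636266-149636565, minus strand), Hspb1 (chr5:135887669-135887968, plus strand) and Dnaja4 (chr9:54699309-54699608, plus strand) read as follows, and that of Hspd1 is the opposite strand of most of the Hspe1 window.
Hspe1: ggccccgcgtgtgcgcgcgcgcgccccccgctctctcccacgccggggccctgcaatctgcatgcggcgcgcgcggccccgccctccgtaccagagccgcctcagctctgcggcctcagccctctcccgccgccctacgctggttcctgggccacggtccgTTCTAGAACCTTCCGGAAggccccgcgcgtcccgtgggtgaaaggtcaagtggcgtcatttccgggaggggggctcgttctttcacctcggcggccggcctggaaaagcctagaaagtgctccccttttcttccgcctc
Hsph1: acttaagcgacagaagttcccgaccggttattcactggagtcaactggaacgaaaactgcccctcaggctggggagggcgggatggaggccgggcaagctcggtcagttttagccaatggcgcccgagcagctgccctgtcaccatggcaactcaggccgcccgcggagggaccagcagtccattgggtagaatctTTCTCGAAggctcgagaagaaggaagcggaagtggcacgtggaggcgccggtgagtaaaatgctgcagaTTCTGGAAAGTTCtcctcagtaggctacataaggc
Hspb1: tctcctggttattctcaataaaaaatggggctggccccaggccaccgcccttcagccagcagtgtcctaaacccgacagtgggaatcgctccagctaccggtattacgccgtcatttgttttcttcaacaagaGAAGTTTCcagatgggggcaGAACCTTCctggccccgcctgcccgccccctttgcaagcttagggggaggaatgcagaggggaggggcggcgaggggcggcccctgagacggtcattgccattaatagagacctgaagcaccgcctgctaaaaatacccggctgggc
Dnaja4: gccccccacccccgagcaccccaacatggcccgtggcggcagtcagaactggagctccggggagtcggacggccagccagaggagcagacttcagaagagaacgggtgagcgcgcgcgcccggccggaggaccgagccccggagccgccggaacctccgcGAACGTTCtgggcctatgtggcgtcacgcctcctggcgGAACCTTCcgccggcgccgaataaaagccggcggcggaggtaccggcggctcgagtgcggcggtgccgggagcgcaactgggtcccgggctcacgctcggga
In Hspe1, 3 matches overlap in 1 run that begins 89 bases before the start, and in Hsph1 1 match begins 54 bases before the start and 2 overlap after it. In Hspb1 the 2 matches begin 117 and 97 bases before the start, and in Dnaja4 90 and 52 bases before it. Bag3 holds 1 match, after its start. A match is a description of the letters and not evidence of binding, and Hsp90aa1 had no window.

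The cytosolic chaperonin CCT, a ring of related subunits that folds actin and tubulin, changed at 6 h. Its subunit genes Cct2, Cct3, Cct4, Cct5, Cct6a, Cct7 and Cct8 gave 0 calls of 7 at 2 h in either genotype and 7 rises of 7 at 6 h in both. At 2 h 10.6% of all genes rose and 20.8% fell in KO liver, and 6.53% rose and 6.17% fell in wt liver. At 6 h 15.8% of all genes rose in KO and 16.5% in wt liver. The median log2 difference of the 7 was 0.11 in KO and 0.16 in wt liver at 2 h, and 0.81 in KO and 0.52 in wt liver at 6 h. Cct3 read 9.76 and 9.91 without treatment, 10.43 and 9.99 after 2 h, and 10.82 and 10.73 after 6 h in KO liver. The wt arrays read 9.69 and 9.55 without treatment, 9.79 and 10.11 after 2 h, and 10.39 and 10.64 after 6 h. Its arrays at 6 h stood above the untreated arrays without overlap, by 0.94 ± 0.16 (adjusted p = 0.00165) in KO and 0.89 ± 0.16 (adjusted p = 0.00187) in wt liver. Cct4 rose by 0.84 ± 0.13 (adjusted p = 0.000641) in KO and 0.46 ± 0.13 (adjusted p = 0.0146) in wt liver. Cct8 rose least in KO liver, by 0.50 ± 0.11 (adjusted p = 0.00435), and by 0.48 ± 0.11 (adjusted p = 0.00476) in wt liver. In the 12 fits without 1 array, the rises of Cct2, Cct3 and Cct8 held every time in both genotypes, whereas in wt liver that of Cct4 ended when wt 6 h replicate 2 or either untreated wt array was left out (adjusted p up to 0.0889) and that of Cct5 when wt 6 h replicate 2 or either untreated wt array was left out (adjusted p up to 0.185). Also in wt liver, that of Cct6a ended when wt 6 h replicate 2 or untreated wt replicate 2 was left out (adjusted p up to 0.102) and that of Cct7 when wt 6 h replicate 2 or untreated wt replicate 2 was left out (adjusted p up to 0.062). In KO liver that of Cct5 ended when KO 6 h replicate 1 or either untreated KO array was left out (adjusted p up to 0.118). From 2 h to 6 h, 7 of the 7 rose in KO liver and 4 of the 7 in wt liver (Cct3, Cct4, Cct7 and Cct8). Over this interval 19.1% of all genes rose in KO and 10.9% in wt liver. The wt calls of Cct4 and Cct7 held in 2 of the 12 fits without 1 array, that of Cct8 in 6 and that of Cct3 in 10, and in KO liver those of Cct2 and Cct3 held in 9 and the other 5 in all. For 0 of the 7 did this change differ between genotypes in limma, where it was more positive in KO liver for 4.97% of all genes and more negative for 2.06%. Tcp1, the remaining subunit gene of the ring, which its symbol leaves outside the 72, read 11.24 and 11.10 in KO liver at 6 h, against 10.28 and 10.43 untreated, and rose by 0.82 ± 0.11 (adjusted p = 0.000404). In wt liver it read 10.79 and 10.97 at 6 h, against 10.39 and 10.32 untreated, and rose by 0.52 ± 0.11 (adjusted p = 0.00441). The dim relatives Cct6b, a testis form, and Cct8l1 did not rise, with -0.72 ± 0.19 and -0.06 ± 0.10 in KO and -0.30 ± 0.19 and -0.53 ± 0.10 in wt liver at 6 h. Cct6b fell in KO liver, a call that ended when KO 6 h replicate 1 or untreated KO replicate 2 was left out (adjusted p up to 0.117), and Cct8l1 fell in wt liver.

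BAG proteins, which bind HSP70 through a shared domain, went separate ways. Bag3, the stress-inducible member that leads HSP70 clients to autophagy, read 8.01 and 7.02 without treatment, 11.50 and 10.27 after 2 h, and 11.42 and 9.63 after 6 h in KO liver. The corresponding wt values were 8.01 and 7.07 without treatment, 8.03 and 8.25 after 2 h, and 11.05 and 11.52 after 6 h. KO arrays at 2 h stood above wt arrays at 2 h, and KO 6 h replicate 2, at 9.63, stood below the other 3 arrays at 6 h. It rose by 3.37 ± 0.58 (adjusted p = 0.0023) in KO liver at 2 h, where wt liver showed 0.60 ± 0.58 (adjusted p = 0.558), and by 3.01 ± 0.58 (adjusted p = 0.00284) in KO and 3.74 ± 0.58 (adjusted p = 0.000679) in wt liver at 6 h. The genotype difference was 2.75 ± 0.58 (adjusted p = 0.0454) at 2 h and -0.76 ± 0.58 (adjusted p = 0.424) at 6 h, and the late change differed by -3.51 ± 0.82 (adjusted p = 0.0375). The 2 h genotype call ended on leaving out any 1 array except a KO 6 h array or KO 2 h replicate 2 (adjusted p up to 0.23). The call on the late change ended on leaving out any 1 array except KO 6 h replicate 1 or KO 2 h replicate 2 (adjusted p up to 0.137).

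Bag4, also known as a silencer of death receptors, fell late. The KO arrays read 8.80 and 8.68 without treatment, 8.78 and 8.83 after 2 h, and 7.97 and 8.03 after 6 h. Wt liver gave 8.98 and 8.93 without treatment, 9.32 and 9.16 after 2 h, and 8.14 and 7.999 after 6 h. The 4 arrays at 6 h lay below all others, with -0.74 ± 0.10 (adjusted p = 0.00042) in KO and -0.89 ± 0.10 (adjusted p = 0.000126) in wt liver, and both calls held in every fit without 1 array. Bag1 fell by 0.64 ± 0.10 (adjusted p = 0.00136) in KO liver at 2 h, where wt liver showed -0.30 ± 0.10 (adjusted p = 0.0782), and at 6 h it stood at -0.55 ± 0.10 (adjusted p = 0.00191) in KO and -0.40 ± 0.10 (adjusted p = 0.00886) in wt liver. That last call ended when wt 6 h replicate 2 or untreated wt replicate 2 was left out (adjusted p up to 0.0646). Bag2 rose by 0.41 ± 0.12 (adjusted p = 0.0259) in KO liver at 6 h, where wt liver showed -0.07 ± 0.12 (adjusted p = 0.704), and its call ended when KO 6 h replicate 2 or either untreated KO array was left out (adjusted p up to 0.131). Bag5 and Bag6, the second of which guards hydrophobic proteins in the cytosol, were called in none of the 12 comparisons.

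The 23 C-type J-domain genes, which share only the J domain and serve many compartments, gave more falls than rises at 6 h in both genotypes and in KO liver at 2 h. In KO liver 1 rose and 10 fell at 2 h, and 6 rose and 8 fell at 6 h. In wt liver 1 rose and 1 fell at 2 h, and 3 rose and 11 fell at 6 h. All genes gave more falls than rises in these 3 comparisons too, with 10.6% and 20.8% in KO liver at 2 h, 15.8% and 19.1% in KO liver at 6 h, and 16.5% and 22% in wt liver at 6 h. The median log2 difference of the 23 was -0.32 in KO and -0.02 in wt liver at 2 h, and -0.01 in KO and -0.26 in wt liver at 6 h. From 2 h to 6 h 10 rose and 3 fell in KO liver, while 3 rose and 10 fell in wt liver. The same turn held over all genes, of which 19.1% rose and 12.6% fell in KO liver, and 10.9% rose and 16.8% fell in wt liver. For 7 of the 23 the change was more positive in KO liver, as it was for 4.97% of all genes.

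Of those counted here as mitochondrial, 4 fell at 6 h in both genotypes. Dnajc19, which regulates the HSP70 of the protein import motor, read 9.95 and 9.79 without treatment, 9.03 and 9.26 after 2 h, and 8.82 and 9.16 after 6 h in KO liver. For wt liver the values were 10.01 and 9.95 without treatment, 9.53 and 9.66 after 2 h, and 8.63 and 8.77 after 6 h. KO arrays at 2 h lay below wt arrays at 2 h, and at 6 h above them. It fell by 0.73 ± 0.14 (adjusted p = 0.00331) in KO liver at 2 h, where wt liver showed -0.38 ± 0.14 (adjusted p = 0.0932), and at 6 h the difference was -0.88 ± 0.14 (adjusted p = 0.000725) in KO and -1.28 ± 0.14 (adjusted p = 7.66e-05) in wt liver. Its late change differed between genotypes by 0.74 ± 0.19 (adjusted p = 0.0463), a call that ended on leaving out any 1 array except KO 6 h replicate 1 or KO 2 h replicate 2 (adjusted p up to 0.168). Its inner-membrane relative Dnajc15 differed at 6 h by -0.48 ± 0.11 (adjusted p = 0.00856) in KO and -0.45 ± 0.11 (adjusted p = 0.00974) in wt liver, the KO call ending when KO 6 h replicate 1 or untreated KO replicate 1 was left out (adjusted p up to 0.0689) and the wt call when untreated wt replicate 2 was left out (adjusted p up to 0.0565). Dnajc28 differed by -1.06 ± 0.14 (adjusted p = 0.000267) in KO and -1.27 ± 0.14 (adjusted p = 8.17e-05) in wt liver. Dnajc30 differed by -0.75 ± 0.13 (adjusted p = 0.00153) in KO and -0.73 ± 0.13 (adjusted p = 0.00147) in wt liver. The exception was Dnajc11, of the outer membrane, which rose by 0.53 ± 0.12 (adjusted p = 0.00639) in KO liver at 6 h, where wt liver showed 0.27 ± 0.12 (adjusted p = 0.0946). Over the 9 members of all roles counted as mitochondrial, 4 rose and 4 fell in KO liver at 6 h. In wt liver 2 rose and 4 fell. Of all genes 15.8% rose and 19.1% fell in KO liver at 6 h, and 16.5% rose and 22% fell in wt liver.

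Of the C-type genes not counted here as mitochondrial, Dnajc4 was the member that stood lower in KO liver at 2 h. In KO liver its values were 8.16 and 8.12 without treatment, 6.80 and 6.996 after 2 h, and 7.09 and 7.38 after 6 h. In wt liver it read 8.13 and 8.17 without treatment, 7.65 and 7.46 after 2 h, and 7.34 and 7.67 after 6 h. All treated arrays lay below all untreated ones, and the KO arrays at 2 h were the lowest pair. It fell by 1.25 ± 0.14 (adjusted p = 0.000412) in KO and 0.59 ± 0.14 (adjusted p = 0.0227) in wt liver at 2 h, and the genotypes differed by -0.66 ± 0.14 (adjusted p = 0.0482). The wt call at 2 h ended when either wt 2 h array or either untreated wt array was left out (adjusted p up to 0.143), and the genotype call ended on leaving out any 1 array except a KO 6 h array, a wt 6 h array or KO 2 h replicate 2 (adjusted p up to 0.204). Dnajc12, which binds the aromatic amino acid hydroxylases such as hepatic phenylalanine hydroxylase, read 7.30 and 7.30 without treatment, 6.24 and 6.67 after 2 h, and 6.71 and 6.73 after 6 h in KO liver. Its wt arrays read 7.40 and 7.27 without treatment, 6.79 and 6.96 after 2 h, and 6.51 and 6.34 after 6 h. Treated arrays lay below untreated arrays throughout, with -0.84 ± 0.14 (adjusted p = 0.00195) in KO and -0.46 ± 0.14 (adjusted p = 0.0573) in wt liver at 2 h, and -0.58 ± 0.14 (adjusted p = 0.0095) in KO and -0.92 ± 0.14 (adjusted p = 0.00063) in wt liver at 6 h.

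A group of 3 C-type genes rose at 6 h in both genotypes. Dnajc2, a J-domain protein of the ribosome exit, read 7.35 and 7.35 without treatment, 7.61 and 7.37 after 2 h, and 8.61 and 8.51 after 6 h in KO liver. The wt arrays read 7.25 and 7.19 without treatment, 7.37 and 7.58 after 2 h, and 8.01 and 8.20 after 6 h. At 6 h every array stood above all earlier ones, the KO pair highest. The rise was 1.22 ± 0.12 (adjusted p = 6.67e-05) in KO and 0.88 ± 0.12 (adjusted p = 0.000316) in wt liver, and KO exceeded wt liver by 0.46 ± 0.12 (adjusted p = 0.0435). That genotype call ended on leaving out any 1 array except wt 6 h replicate 2 or a KO 2 h array (adjusted p up to 0.255). Dnajc21, known for its role in making the large ribosomal subunit, rose by 0.53 ± 0.12 (adjusted p = 0.00642) in KO and 0.62 ± 0.12 (adjusted p = 0.0025) in wt liver, the KO call ending when untreated KO replicate 1 was left out (adjusted p up to 0.052). Dnajc5, the cysteine string protein of vesicles, rose by 0.72 ± 0.13 (adjusted p = 0.00198) in KO and 0.70 ± 0.13 (adjusted p = 0.00201) in wt liver.

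Dnajc24, which takes part in the making of diphthamide on a translation elongation factor, was the other member higher in KO liver at 6 h. It read 8.80 and 8.68 without treatment, 8.23 and 8.04 after 2 h, and 8.52 and 8.99 after 6 h in KO liver. The corresponding wt values were 8.59 and 8.77 without treatment, 8.33 and 8.46 after 2 h, and 7.87 and 8.15 after 6 h. KO arrays were down at 2 h and back at the untreated level at 6 h, while wt arrays were lowest at 6 h. The genotypes differed at 6 h by 0.74 ± 0.16 (adjusted p = 0.0241), a call that ended when KO 6 h replicate 2 or wt 6 h replicate 1 was left out (adjusted p up to 0.18), and the late changes differed by 1.003 ± 0.23 (adjusted p = 0.0362), which ended on leaving out any 1 array except KO 6 h replicate 1 or wt 6 h replicate 2 (adjusted p up to 0.14). Dnajc16, Dnajc17 and Dnajc18 also moved further up in KO than in wt liver, with late changes of 0.34 ± 0.11, 0.87 ± 0.11 and 0.43 ± 0.15 in KO and -0.47 ± 0.11, 0.14 ± 0.11 and -0.47 ± 0.15 in wt liver. For Dnajc16 the difference between genotypes was 0.81 ± 0.15 (adjusted p = 0.0225), and it ended when KO 6 h replicate 2, wt 6 h replicate 1, KO 2 h replicate 1 or wt 2 h replicate 2 was left out (adjusted p up to 0.103). The single-genotype changes were lost for Dnajc16 when KO 6 h replicate 2 or either KO 2 h array was left out (adjusted p up to 0.185) in KO and when wt 6 h replicate 1 or wt 2 h replicate 2 was left out (adjusted p up to 0.0777) in wt liver, and for Dnajc18 on leaving out any 1 array except KO 6 h replicate 1 or an untreated wt array (adjusted p up to 0.3) in KO and when either wt 6 h array, either wt 2 h array or either untreated KO array was left out (adjusted p up to 0.191) in wt liver. For Dnajc22 the change was negative in both genotypes and called in wt liver alone, with -0.20 ± 0.11 in KO and -0.84 ± 0.11 in wt liver.

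**Figure D4:**
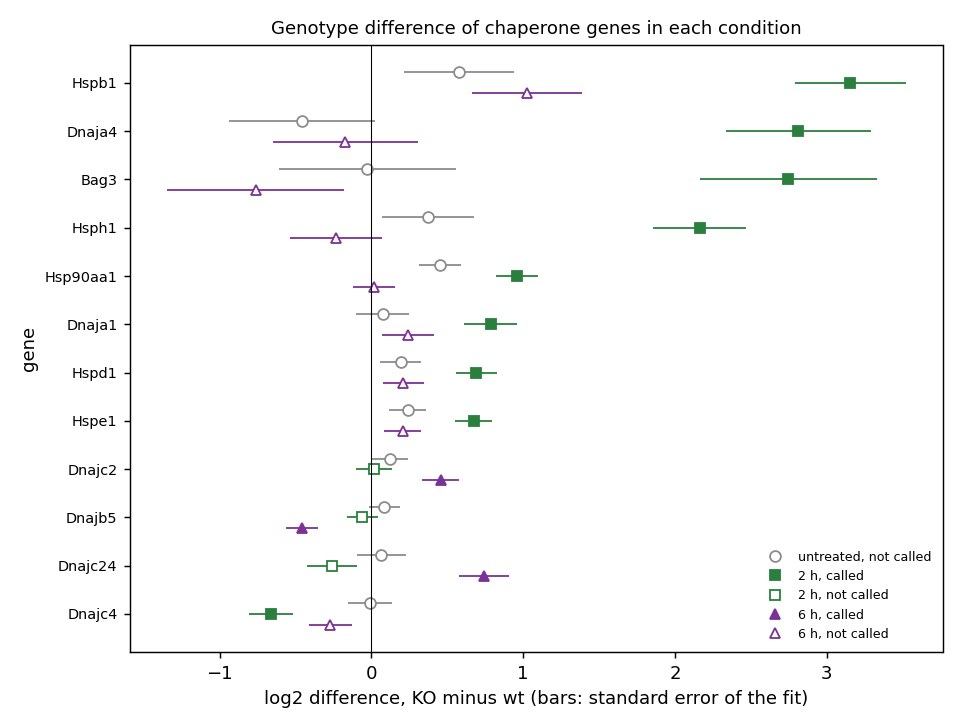
Log2 difference KO minus wt (horizontal, bars are standard errors of the fit) in untreated liver, at 2 h and at 6 h for the 12 members called between genotypes at 2 h or 6 h. Filled symbols were called. The 8 members called higher at 2 h lie further to the right at 2 h than in untreated liver or at 6 h, with Hspb1 at 3.16 at 2 h and 1.03 at 6 h.

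Genes that work with the network but lie outside the 72 were counted beside it. Hsf1, the gene of HSF1, was listed but was not among the tested genes. Of 31 tested heat shock factors and co-chaperones, 4 rose and 7 fell in KO liver at 2 h, and 3 rose and 1 fell in wt liver. Of all genes 10.6% rose and 20.8% fell in KO liver at 2 h, and 6.53% rose and 6.17% fell in wt liver. At 6 h 9 rose and 4 fell in KO liver, and 8 rose and 7 fell in wt liver, where 15.8% of all genes rose and 19.1% fell in KO and 16.5% rose and 22% fell in wt liver. Stip1, which hands clients from HSP70 to HSP90, rose at 6 h by 1.29 ± 0.29 (adjusted p = 0.0067) in KO and 1.15 ± 0.29 (adjusted p = 0.0104) in wt liver. Chordc1, an HSP90 co-chaperone, read 11.15 and 10.40 in KO liver at 2 h, against 9.58 and 9.33 untreated, and rose by 1.32 ± 0.26 (adjusted p = 0.00448). In wt liver it read 9.55 and 9.83 at 2 h, against 9.40 and 8.98 untreated, a difference of 0.50 ± 0.26 (adjusted p = 0.252). Ptges3, an HSP90 co-chaperone, was the 1 gene of the list that stood higher in KO liver at 2 h, by 0.63 ± 0.12 (adjusted p = 0.0351). Lower in KO liver at 2 h were Clpx, of the mitochondrial protease, at -1.41 ± 0.26 (adjusted p = 0.0323), and the prefoldin subunit gene Pfdn6, at -0.46 ± 0.10 (adjusted p = 0.0493). Fkbp5, an HSP90-bound immunophilin gene also known as a glucocorticoid target, rose at 2 h by 1.98 ± 0.33 (adjusted p = 0.00203) in KO and 2.63 ± 0.33 (adjusted p = 0.000912) in wt liver.

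Chaperones of the endoplasmic reticulum, which fold secreted and membrane proteins, were counted in the same way. Of 15 tested, 1 rose and 10 fell in KO liver at 2 h, and 0 rose and 7 fell in wt liver, where 20.8% of all genes fell in KO and 6.17% in wt liver. At 6 h 3 rose and 1 fell in KO liver, and 2 rose and 6 fell in wt liver, and 10 of the 15 stood higher in KO than in wt liver, where 4.09% of all genes did. Hspa5, the HSP70 of that compartment, rose at 6 h by 0.90 ± 0.16 (adjusted p = 0.00155) in KO and 0.88 ± 0.16 (adjusted p = 0.00145) in wt liver. Hyou1, its HSP110 partner, read 10.03 and 10.32 in KO liver at 6 h, against 8.91 and 9.40 in wt liver, a difference of 1.02 ± 0.26 (adjusted p = 0.041). Among the cytosolic and mitochondrial members, 2 of 72 stood higher in KO liver at 6 h, and whether the lists differ in this was not tested. The fits without 1 array were read for the 72 members only. Whether the calls in the lists outside them, Hyou1 included, rest on single arrays was therefore not tested.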

How the data were processed

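The deposited table held normalized intensity values for 35556 probe sets on 12 arrays, made by the authors with Affymetrix Expression Console and RMA, per the submitters' processing notes, which give no versions. Log2 was taken without a pseudocount. Of these probe sets, 21218 were annotated to 1 gene symbol, 1881 to several and 12457 to none. Each gene took its single-symbol probe set with the highest mean, and genes with a mean log2 of at least 5 were tested. Probe sets with several symbols were left out of the tests, since no 1 gene can be named from them.

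The 6 group means were fitted to all 12 arrays with limma 3.58.1 in R 4.3.3 (6 residual and 4.33 prior degrees of freedom), with Benjamini-Hochberg adjustment over all tested genes within each of 12 comparisons. Errors are standard errors of that fit. The fit was tested on simulated data: of genes changed by 1 on the log2 scale 84% were recovered for wt liver at 2 h against untreated, and 50% for the difference between the genotypes' responses at 2 h. The simulation changed few of the genes, in a single group and with independent normal noise. These shares are therefore not the power in the measured data. The members, their roles and the other gene lists were chosen with earlier results of these data known. Genes are named if they were among the largest called rises or falls of a comparison, called between genotypes, lowest in p where none was called, or members of the paralogue sets described. The other lists are described by genes that rose or differed. Chordc1, Stip1, Fkbp5, Hspa5, Hyou1 and Tcp1 were chosen after their values were seen.

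Alternatives were quantile normalization, no filter or one at a mean log2 of 7, the mean over a gene's probe sets, log2 of the value plus 16, a variance prior with a trend, only the compared groups, the replicate number as a block, and each array left out in turn. Promoter sequences are from RefSeq (GRCm38.p6). No source used here gives the build behind the array annotation.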

Additional observations from a re-analysis of the deposited data

Results flagged for a closer look

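The change from 2 h to 6 h differed between genotypes for 15 members in limma, each with an adjusted p under 0.05 over all genes. It was more negative in KO than in wt liver for Bag3 (-3.51), Dnaja4 (-2.99), Dnajb1 (-2.42), Hsph1 (-2.40), Hspb1 (-2.13), Dnajb4 (-1.89) and Hsp90aa1 (-0.94), on the log2 scale. It was more positive in KO liver for Dnajc24 (1.003), Dnajb14 (0.98), Dnajc18 (0.90), Dnajc16 (0.81), Dnajc19 (0.74), Dnajc17 (0.73), Dnajc11 (0.65) and Dnajc22 (0.64). No call held in all 12 fits without 1 array, and the arrays that end them are named with the counts above. The neutrophil markers, of which 6 of 9 also differed in this comparison, summed to 532 to 664 in KO and 2149 to 4411 in wt liver at 6 h, and their part in these values was not tested.

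Probe sets annotated to several genes were outside the comparisons, and some of them moved strongly. The 3 probe sets shared by Hspa1a and Hspa1b, the inducible HSP70 genes, are the clearest. The first stood 3.44 above untreated liver in KO and 1.31 in wt liver at 2 h, with 3.44 in KO and 5.18 in wt liver at 6 h. The second stood 4.84 above in KO and 1.85 in wt liver at 2 h, and 4.92 in KO and 5.60 in wt liver at 6 h. Its arrays read 12.81 and 11.82 in KO liver at 2 h, against 8.82 and 9.41 in wt liver. The third stood 5.32 above untreated liver in KO and 1.12 in wt liver at 2 h. At 6 h it stood 5.48 above in KO and 6.99 in wt liver. The third read 12.84 and 10.85 in KO liver at 2 h, against 6.88 and 7.70 in wt liver. The 2 probe sets shared by Snord14d, Snord14c and Hspa8 stood 1.59 and 1.58 above untreated liver in wt liver after 2 h, with 1.81 and 1.80 after 6 h. The KO values of both were 0.96 after 2 h and -0.09 after 6 h. In untreated liver, however, they already read 0.92 and 0.93 higher in KO than in wt liver. KO minus wt was 0.29 and 0.30 at 2 h, and -0.98 and -0.97 at 6 h. Values of a probe set with several genes cannot be given to 1 of them, and the differences in this paragraph were not tested.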

How the results depend on the processing

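No called difference of a named gene changed sign under any alternative run. The sign turned in 106 of the 4320 values with 1 array left out and in 17 of the 2820 under the other alternatives. All values that turned were called in neither fit, many of them near 0, whereas the 4320 and 2820 count called values too. A direction given for a difference that was not called therefore describes these arrays only. With 1 array left out at a time, the number of members called ranged from 2 to 11 for wt liver at 2 h against untreated (10 with all arrays), from 0 to 14 for KO against wt at 2 h (9), from 0 to 6 for KO against wt at 6 h (3), from 0 to 2 for the difference between responses at 2 h (0), from 19 to 32 for KO liver from 2 h to 6 h (33), from 17 to 37 for wt liver from 2 h to 6 h (34), and from 0 to 19 for the difference between these late changes (15). With only the compared groups in the fit, 1 member was called for KO against wt at 2 h, 0 at 6 h, 14 for KO liver from 2 h to 6 h and 0 for the difference between late changes; such fits have fewer arrays behind the spread. For KO against wt at 6 h, a mean log2 of at least 7 gave 7 calls and log2 of the value plus 16 also gave 7, and the cause was not tested. The counts against untreated liver for KO at both times and wt at 6 h stayed within 1.5 times under every setting run. Of the results for single named genes, 2740 kept their side of the threshold under the other alternatives, 58 lost a call and 22 gained one. With 1 array left out, 3989 kept it, 304 lost a call and 27 gained one. Replicate numbers were not taken to pair the samples, since over all genes deviations of same-numbered arrays correlated above 0.1 in 4 of 15 pairs of groups (-0.13 to 0.18). Even so, 6 inducible members read higher in replicate 1 in 4 of the 6 groups, whereas others, such as Hspb1, did not in all 4. With the replicate number as a block, the calls were 33 for KO and 11 for wt liver at 2 h, 45 for KO and 42 for wt liver at 6 h, 11 for KO against wt at 2 h and 2 at 6 h, 31 for KO and 33 for wt liver from 2 h to 6 h, and 15 for the difference between late changes. Signal limits the dim members, such as Dnajc6 at a mean log2 of 5.00.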

Other observations

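The 2 probe sets of Dnajc19 alone stood at similar values at 6 h, -0.88 and -0.83 against untreated liver in KO and -1.28 and -1.08 in wt liver. The 2 single-gene probe sets of Dnaja1 stood 1.02 and 1.28 above untreated liver in KO liver at 2 h, against 0.31 and 0.72 in wt liver, so the wt value depended on the probe set more than the KO value.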
